A study of Mus musculus with 2 samples.

Results

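The genes described here are 6 that glucocorticoids induce in many tissues (Fkbp5, Tsc22d3, Zbtb16, Sgk1, Dusp1 and Errfi1) and the metallothionein genes Mt1 and Mt2. They were found by the RefSeq transcript given for each array probe, are 8 of the 20884 genes named on the arrays, and each is read by 1 probe printed in 1 spot. Cell populations from the epididymal fat of male C57/BL mice were compared on 2 single-colour Agilent arrays, 1 for each of the 2 populations. Without replicates, no difference could be tested. SPAD are differentiated small proliferative adipocytes, grown from cells that sedimented when the floating fraction of collagenase-digested fat was spun again. SVCD are differentiated cells of the lower phase, which the labels spell stromal viscular cells. Each population was cultured in DMEM to 90% confluency. Both then received the same differentiation medium with insulin, dexamethasone and IBMX for 3 days, and plain DMEM for the last 2 days before RNA was taken. Cells that never met dexamethasone were not analysed here, so every value below compares SPAD with SVCD after withdrawal of the hormone and says nothing of its effect within either population. The labels do not say how many mice or dishes gave each RNA.

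Dexamethasone is a synthetic glucocorticoid. It binds the glucocorticoid receptor (gene Nr3c1), which Hsp90 and its co-chaperones hold in the cytoplasm; the bound receptor moves to the nucleus and sits on glucocorticoid response elements, inverted repeats of a short motif. In adipocyte precursors the hormone is part of the standard induction mix, where IBMX adds cyclic AMP signalling by blocking phosphodiesterases. Metallothioneins are small cysteine-rich proteins that bind zinc and copper; their genes answer to zinc through the sensor Mtf1 and its metal response elements, and also to glucocorticoids and oxidative stress.

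Sequence upstream of the start of 5 of the genes is shown because these stretches hold the elements named above. It comes from RefSeq promoter windows (build GRCm38.p6, 250 bases before to 50 after each annotated start), in which 15 windows matched 7 of the 8 genes. The array design uses the older build mm9. For Mt2 and Mt1 the 250 bases before the start are given, with capitals for the core of the metal response element, TGCACNC or TGCGCNC on either strand. For Sgk1 the capitals mark a full glucocorticoid response element, AGAACA and TGTTCT separated by 3 bases, in the window of an alternative start. For Dusp1 and Errfi1 they mark the cyclic AMP response element TGACGTCA. All lines run 5′ to 3′ on the gene's own strand.
Mt2 (chr8:94172368-94172617, + strand): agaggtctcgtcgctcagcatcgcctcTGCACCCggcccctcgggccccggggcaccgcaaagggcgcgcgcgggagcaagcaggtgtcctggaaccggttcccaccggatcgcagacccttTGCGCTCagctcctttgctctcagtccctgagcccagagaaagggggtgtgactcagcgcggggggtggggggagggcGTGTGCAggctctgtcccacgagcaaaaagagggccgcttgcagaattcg
Mt1 (chr8:94178839-94179088, + strand): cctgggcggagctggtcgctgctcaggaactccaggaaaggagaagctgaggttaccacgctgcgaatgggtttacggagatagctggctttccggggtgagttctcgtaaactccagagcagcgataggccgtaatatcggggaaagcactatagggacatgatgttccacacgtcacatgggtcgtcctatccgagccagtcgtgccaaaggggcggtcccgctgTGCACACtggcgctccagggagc
Sgk1 (chr10:21993640-21993759, + strand): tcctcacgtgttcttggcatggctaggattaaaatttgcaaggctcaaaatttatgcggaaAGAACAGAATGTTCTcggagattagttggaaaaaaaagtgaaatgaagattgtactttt
Dusp1 (chr17:26508553-26508672, - strand): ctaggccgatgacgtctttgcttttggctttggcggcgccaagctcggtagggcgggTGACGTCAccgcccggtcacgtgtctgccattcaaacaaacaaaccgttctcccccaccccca
Errfi1 (chr4:150854950-150855069, + strand): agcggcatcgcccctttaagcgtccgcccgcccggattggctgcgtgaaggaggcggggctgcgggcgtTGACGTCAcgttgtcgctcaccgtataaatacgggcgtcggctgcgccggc

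The windows differed in which elements they held. The Mt2 window held 4 metal response cores and the Mt1 window 3, counting those after the start that are not printed. In the Mt1 window such cores began at bases 3 and 21 after the annotated start. Of all 32851 RefSeq windows, 25.7% held at least 1 such core, 7.11% more than 1 and 0.517% more than 3. The glucocorticoid element in the Sgk1 window had no mismatch, which was so in 3 of the 32851 windows; with up to 2 mismatches, 1.84% of all windows held one. The single repeat unit AGAACA occurred in 19.0% of all windows and in 4 of the 15, of which 3 belong to Sgk1 and 1 to Tsc22d3. Sgk1 has the most of the 15 windows, and so more chances of a match, and Zbtb16 has none. Besides Mt1 and Mt2, 1 Sgk1 window and the Dusp1 window held a metal response core. The cyclic AMP element occurred in 1.79% of all windows and in 2 of the 15, those printed for Dusp1 and Errfi1. The antioxidant element TGACNNNGC was found in the Mt2 and Dusp1 windows and in 12.4% of all, and TATAAA in 3 of the 15 and in 13.6% of all. The Fkbp5 window held none of these motifs. Such matches describe the letters in these windows and not sites that were in use; 1 Dusp1 metal response core spans the start itself, and single repeat units overlap the full element in Sgk1.

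Signals of all 8 genes were called well above background on both arrays, and no spot was saturated. Values are processed intensities as the scanner software gave them, background-subtracted, and differences are in log2 units (SPAD minus SVCD) after each array was scaled to its 75th percentile of probe signal, an intensity of 622 for SPAD and 678 for SVCD. The software's own error model put 10% on each of these spots, which gives an SD of 0.20 on a log2 difference. Repeat spots of other probes, in the nearest range of brightness, scattered less, with an SD between 0.03 and 0.04. For Mt1 and Mt2 that range had a mean scaled log2 signal of 3.78, dimmer than these 2 genes at 6.98 to 8.83. Both cover the spot only, and neither covers cultures, RNA extraction or labelling.

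Among the glucocorticoid-induced genes, 3 had lower signals in SPAD and 3 had nearly equal signals in both populations. Fkbp5 encodes the Hsp90 co-chaperone FKBP51, which lowers the receptor's affinity for hormone and so acts in negative feedback. Its signal was 4147 in SPAD and 8767 in SVCD, a log2 difference of -0.95 ± 0.20 or 1.94-fold lower in SPAD, just short of 2-fold. Tsc22d3 encodes GILZ, a leucine zipper protein that restrains inflammatory transcription factors. It had 3146 in SPAD and 6228 in SVCD, a difference of -0.86 ± 0.20 and thus 1.81-fold lower in SPAD. Sgk1, the serum- and glucocorticoid-regulated kinase that acts on ion transport and Foxo factors, had 5235 in SPAD and 8620 in SVCD, 1.51-fold lower in SPAD (-0.59 ± 0.20). For these 3 genes the signals on the arrays lay apart by more than the error of the spots. In RNA of whole cultures, fewer cells of a type and less RNA per cell cannot be told apart. The Tsc22d3 and Sgk1 genes have several transcripts and starts, and the probes carry 1 of the accessions each, so which transcripts they read is not known here.

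Zbtb16, Dusp1 and Errfi1 differed little. Zbtb16 encodes the zinc finger repressor PLZF and is the dimmest of the 8 on both arrays, with 701 in SPAD and 640 in SVCD (0.26 ± 0.20). Dusp1, the phosphatase that switches off MAP kinases, had 3171 in SPAD and 2974 in SVCD (0.22 ± 0.20). Errfi1 encodes Mig6, a feedback inhibitor of the EGF receptor. Its signals were 6849 in SPAD and 6034 in SVCD (0.31 ± 0.20). Each of these 3 differences lay within 2 SDs of 0 by the error model, but was larger than the repeat-spot SD of 0.03 to 0.04.

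Both metallothionein genes were very bright and were higher in SPAD. Mt2 had a signal of 282313 in SPAD and 85672 in SVCD, 3.59-fold higher in SPAD (1.85 ± 0.20). Mt1 had 237895 in SPAD and 136657 in SVCD, 1.90-fold higher (0.93 ± 0.20). These signals were below the scanner's saturation value of 778204 and below the brightest other probes, which reached 370528 for SPAD and 425147 for SVCD. The difference of Mt2 exceeded that of Mt1 by 0.92 ± 0.29 log2 units, or 1.89 times, and this comparison of the 2 genes does not depend on a constant scaling of the arrays. The 2 proteins and transcripts are similar, and the probes' sequences were not used here, so reads of one gene's RNA by the other's probe were not tested.

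**Figure D1:**
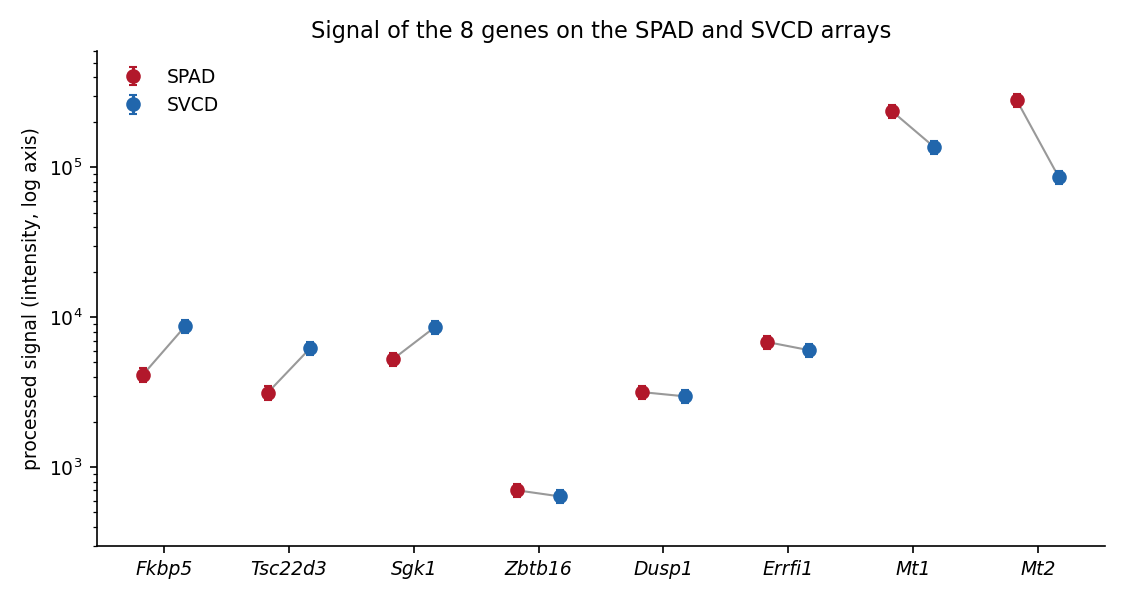
Processed signal (intensity, log axis) of each of the 8 genes in SPAD (red, left) and in SVCD (blue, right); bars are the scanner software's error of the spot, 10% of the signal, and grey lines join the same probe. Fkbp5, Tsc22d3 and Sgk1 were lower in SPAD, Mt1 and Mt2 higher, and the other genes nearly level.

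Counted by size, 1 of the 8 genes (Mt2) was at least 2-fold higher in SPAD and none was at least 2-fold lower. Over all 15626 named genes well above background on at least 1 array, 16.3% were higher by that much and 14.1% lower, and 1 of 8 is 12.5%, so neither count stands out. The median difference of the 8 genes was 0.24, against 0.06 over all genes, and 5 were above 0 and 3 below. Mt2 had a larger difference than 93.6% of all genes and Mt1 than 82.1%, whereas Fkbp5 had a smaller one than 85.2%, Tsc22d3 than 83.6% and Sgk1 than 77.9%. Errfi1, Zbtb16 and Dusp1 stood near the middle, above 61.9%, 59.8% and 57.9% of genes. Bright genes spread less than dim ones, so the genes were also set among genes of like brightness, in ranges chosen after the values were seen. Of 142 genes with a mean scaled log2 signal of 7 or more, 16 passed 2-fold upward and 17 reached the difference of Mt1. Among these 142 genes Mt2 had the largest difference. Of 899 genes between 4 and 7, though, 38 were at or above the difference of Mt2. The rank of Mt2 thus depends on the cut at 7. Of 2186 genes between 2 and 4, the range that holds Fkbp5, Tsc22d3, Sgk1, Dusp1 and Errfi1, 230 were at or below the difference of Fkbp5 and 378 at or below that of Sgk1. The plot of all genes shows the metallothionein genes at the right-hand edge.

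**Figure D2:**
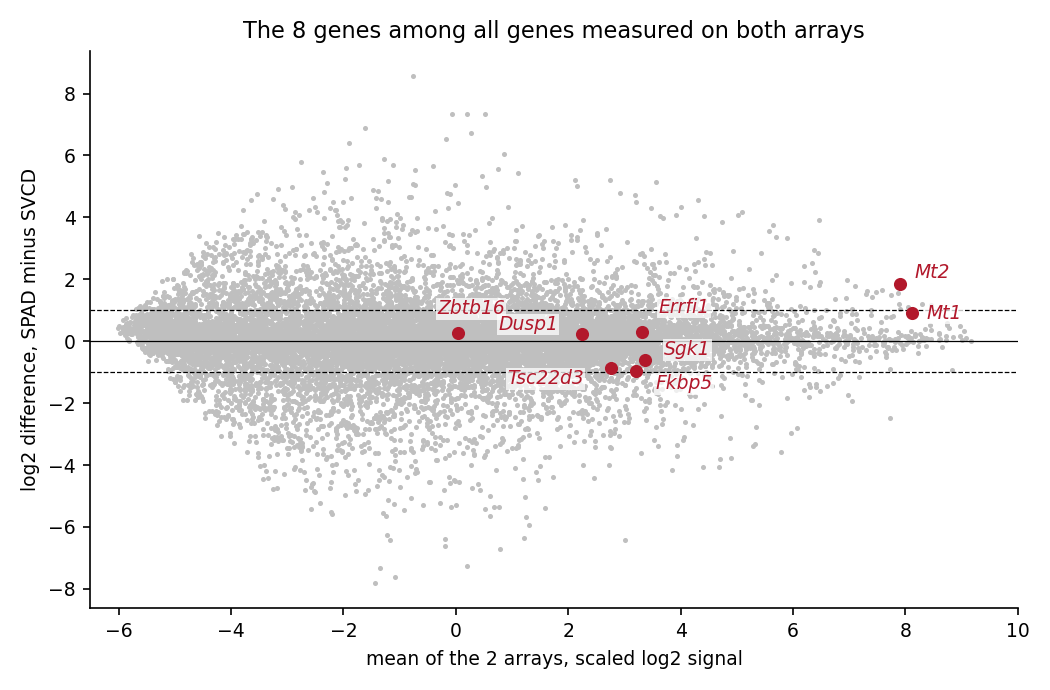
Log2 difference, SPAD minus SVCD, against the mean scaled log2 signal of the 2 arrays for each gene well above background on both (grey), with the 8 genes in red; dashed lines mark 2-fold. Mt2 is the one red point above the upper line, at 1.85, and Fkbp5 lies just inside the lower line at -0.95.

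The scaling of the arrays changed the standing of Fkbp5, Tsc22d3 and Sgk1 against 2-fold, and not that of the other genes. Fkbp5, Tsc22d3 and Sgk1 were below 0, and Mt1 and Mt2 above 0, under all 10 alternatives. Mt2 ranged from 1.01 to 1.89 and was past 2-fold in each, whereas Mt1 ranged from 0.09 to 0.95 and never was. Fkbp5 passed 2-fold lower without scaling (-1.08) and with quantile normalization (-1.03). Scaling to the 8 spike-in probes that were well above background moved the median of all genes by -0.83, to -0.77. Under it Fkbp5 (-1.79), Tsc22d3 (-1.70) and Sgk1 (-1.43) were more than 2-fold lower, and Zbtb16, Dusp1 and Errfi1 turned to -0.58, -0.62 and -0.53. Spike-in scaling moves every gene by one constant, so it leaves distances between genes as they are. Relative to the median of all genes, Mt2 stood at 1.79 in the main values, 1.57 with quantile normalization and 1.59 without the filter on dim genes. Fkbp5 stood at -1.01 in the main values, -1.02 with quantile normalization and -1.21 without that filter. In the main values, 16.3% of all genes were past 2-fold upward and 14.1% downward, the background for the count of each list below. With spike-in scaling, 6.44% of all genes were past 2-fold upward and 38.3% downward, the background for the counts given with it below. In the authors' deposited table, which centres each probe on the 2 arrays, the SPAD minus SVCD difference was -0.96 for Fkbp5 and 1.84 for Mt2.

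**Figure D3:**
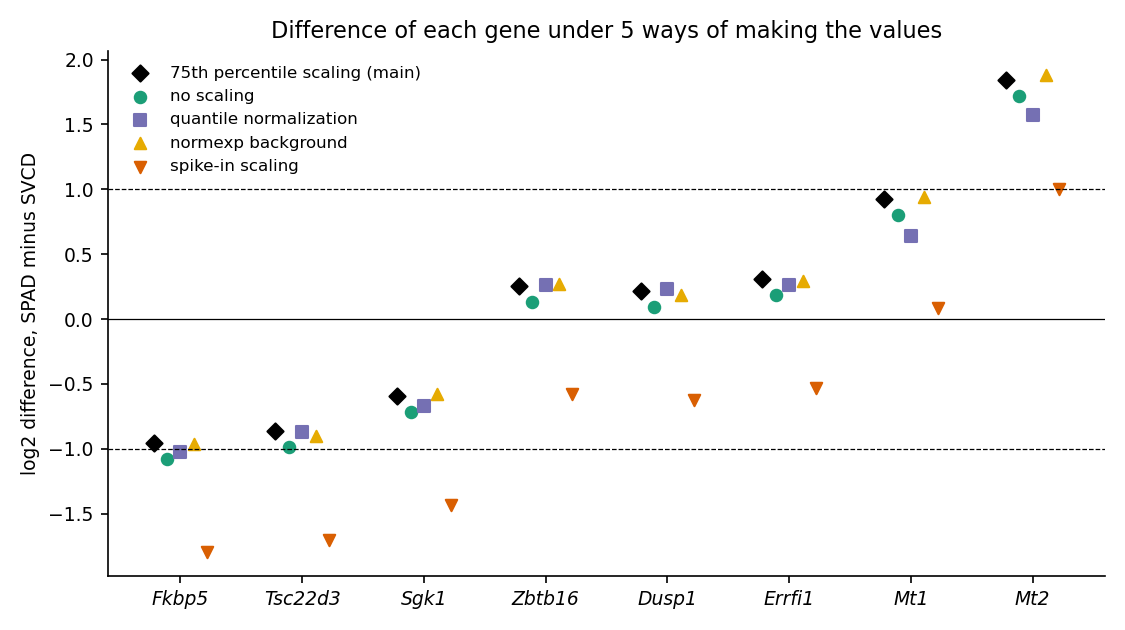
Log2 difference, SPAD minus SVCD, of each of the 8 genes under 5 ways of making the values (symbols); dashed lines mark 2-fold. The order of the genes is nearly the same throughout, whereas spike-in scaling places each of them lower than the main values by 0.84.

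Among genes that govern access of hormone to the receptor, Hsd11b1 had the largest difference. Hsd11b1, the enzyme that regenerates active glucocorticoid from its inert keto form, had a signal of 1131 in SPAD and 84.8 in SVCD, 14.5-fold higher in SPAD (3.86). H6pd, which supplies that enzyme with NADPH, was 1.96-fold higher (0.97). Dexamethasone itself does not need this step to be active. The receptor gene Nr3c1 had 1823 in SPAD and 2539 in SVCD (-0.35, and -0.27 on its other probe). The mineralocorticoid receptor gene Nr3c2 was very dim, with 14.3 in SPAD and 14.2 in SVCD. Of the co-chaperones, Fkbp4, whose product counters FKBP51, differed by -0.27, whereas Ptges3, Stip1 and Bag1 differed by 0.79, 0.46 and 0.42. Ptges3 had 0.19 to 0.73 on its other probes. The chaperone gene Hsp90aa1 was 2.59-fold higher (1.37). Abcb1a, an efflux pump that carries dexamethasone out of cells, was 2.28-fold higher, with 331 in SPAD and 158 in SVCD. The related pump gene Abcb1b was brighter and went the other way, with 484 in SPAD and 781 in SVCD (-0.57). In this list of 18 genes, 17 were well above background on at least 1 array, 3 were past 2-fold upward and none downward, with a median of 0.36 that became -0.48 with spike-in scaling, with 1 upward and 5 downward.

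Other genes that glucocorticoids induce were spread widely in both directions. Of 44 measured, 16 were past 2-fold upward in SPAD and 7 downward, and their median was 0.35, which became -0.49 with spike-in scaling, with 9 upward and 15 downward. Per1, a clock gene, had 7046 in SPAD and 5426 in SVCD (0.50), and Klf9, a transcription factor gene, 2352 in SPAD and 2522 in SVCD (0.02). Klf15, a regulator of amino acid and lipid metabolism, was well above background in SPAD alone, at a dim 29.8, and was at least 3.79-fold higher. For a gene dim on 1 array, "at least" sets the bright value against the lowest signal called well above background on the dim array, or the dim probe's own if that is higher. Tmem252 was at least 20.7-fold higher and Pck1, the gluconeogenic enzyme that also serves glycerol synthesis in fat, at least 10.4-fold. At the other end, the haptoglobin-haemoglobin receptor gene Cd163, a macrophage marker, had 25.7 in SPAD and 300.1 in SVCD (-3.42). Crispld2 was 9.64-fold lower (-3.27, and -2.41 on its other probe).

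Genes that glucocorticoids repress in other cells also differed in both directions. Of 20 measured, 5 were past 2-fold upward in SPAD and 8 downward, and their median was -0.51, or -0.15 over the genes measured on both arrays. With spike-in scaling 2 were upward and 11 downward, and the median was -1.35. The chemokine genes Ccl2 and Ccl7 had 544 and 196 in SPAD against 50454 and 13049 in SVCD. Lif, a cytokine gene, was 22.4-fold higher in SPAD (650 in SPAD and 31.7 in SVCD), and the matrix protease gene Mmp3 19.6-fold higher (2503 in SPAD and 139.5 in SVCD). Macrophage markers, given at the end, were lower in SPAD as well, and their part in the values of Cd163, Ccl2 and Ccl7 was not tested.

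The 4 metallothionein genes lie next to each other on chromosome 8, in the order Mt4, Mt3, Mt2, Mt1. Mt3, best known from brain, had 1326 in SPAD and 1096 in SVCD (0.40), and Mt4, known from stratified epithelium, a dim 35.8 in SPAD and 32.3 in SVCD (0.28). Mt1, Mt2 and Mt3 were thus above 0 in the main values, with the largest difference at Mt2. The difference of Mt4 was close to the repeat-spot SD of 0.26 at its brightness, so its direction is uncertain. Mt3 and Mt4 turned negative with spike-in scaling. Mtf1, the zinc-sensing factor, had 557 in SPAD and 425 in SVCD (0.52) on its brightest probe and 1.44 on another. Slc30a1, the zinc exporter that Mtf1 also induces, had 642 in SPAD and 377 in SVCD and was 1.86-fold higher (0.89). Among zinc importers, Slc39a4 and Slc39a6 were 2.37-fold and 2.21-fold higher and Slc39a8 2.19-fold lower. Of the 22 genes measured in this list besides Mt1 and Mt2, these 2 were the only ones at least 2-fold higher and Slc39a8 the only one lower, with a median of 0.29. That median became -0.55 with spike-in scaling, under which 0 were past 2-fold upward and 6 downward.

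Oxidative stress genes, which share inducers with the metallothioneins, were higher in SPAD. Of 15 measured, 13 were at least 2-fold higher and none lower, with a median of 1.68, or 0.84 with spike-in scaling, which left 7 past 2-fold upward. The cystine transporter gene Slc7a11 was 31.9-fold higher, the glutathione synthesis gene Gclc 23.6-fold, the sulfiredoxin gene Srxn1 14.9-fold and Nqo1 13.0-fold. Srxn1 was about as bright as the metallothioneins in SPAD, with 211745 in SPAD and 15485 in SVCD.

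**Figure D4:**
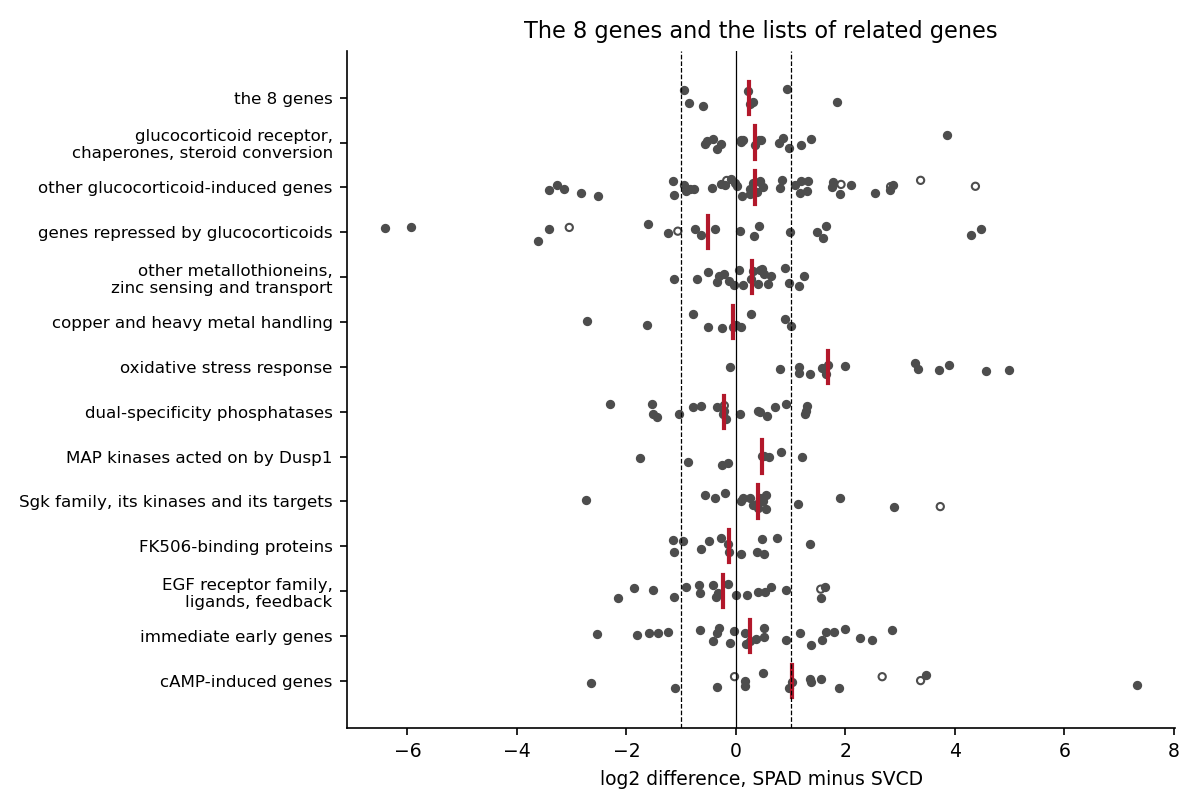
Log2 difference, SPAD minus SVCD, of each measured gene (points) in the 8 genes and in the lists of related genes, with the median of each list as a red bar; open points are bounds of genes well above background on 1 array, and dashed lines mark 2-fold. The oxidative stress list has the highest median, 1.68, followed by the cyclic AMP list at 1.03.

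The relatives and partners of the kinase and phosphatase genes went in both directions in the main values. So did all genes, with 16.3% past 2-fold upward and 14.1% downward. Of 21 other dual-specificity phosphatase genes, 3 were past 2-fold upward in SPAD and 5 downward, around a median of -0.21; Dusp14 was 4.93-fold lower (36.7 in SPAD and 197 in SVCD) and Dusp7 2.87-fold lower. With spike-in scaling 0 were upward and 12 downward, with a median of -1.05. The target of Errfi1, Egfr, had 1441 in SPAD and 1191 in SVCD (0.40) on its brightest probe, but 1.39 and 2.20 on its other probes, so its difference is uncertain. In the EGF receptor list, 3 of 20 were higher and 4 lower, among them the ligand genes Nrg1 (4.42-fold lower) and Nrg4 (3.63-fold lower). With spike-in scaling 0 were upward and 10 downward, and normexp gave 1 and 3. Over all genes, normexp left 9.49% past 2-fold upward and 9.15% downward. The list of Sgk relatives, kinases and targets had 4 of 18 higher and 1 lower, but 3 higher and 4 lower with spike-in scaling, where its median turned to -0.43 from 0.41. In it Sgk2 was at least 13.3-fold higher, at 105 in SPAD and 4.45 in SVCD, and Ndrg1, whose product Sgk1 phosphorylates, 7.43-fold higher. Nedd4l, another substrate of Sgk1, was 3.72-fold higher on its brightest probe, whereas another probe, well above background in SVCD alone, was lower in SPAD. Tsc22d1, a relative of Tsc22d3, differed by 0.35 and Tsc22d4 by 0.00 on its brightest probe but 0.27 and 1.19 on others.

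Dusp1, Sgk1 and Errfi1 are also immediate early genes, which serum and cyclic AMP switch on within minutes. Of 27 other such genes measured, 9 passed 2-fold upward in SPAD and 5 downward, around a median of 0.25. With spike-in scaling the balance turned, with 4 upward, 9 downward and a median of -0.59. Egr1, a zinc finger factor gene, had 4385 in SPAD and 1196 in SVCD (higher in SPAD), Fos 700 in SPAD and 2050 in SVCD (2.68-fold lower), and Nr4a1 1232 in SPAD and 1195 in SVCD (0.17). Of 17 measured genes that cyclic AMP induces, 9 were higher and 2 lower, with a median of 1.03, or 0.19 with spike-in scaling, with 5 upward and 3 downward. The phosphodiesterase gene Pde4b was 11.2-fold higher, with 854 in SPAD and 83.6 in SVCD.

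Markers of several cell types differed between the populations. The label of SPAD names small proliferative adipocytes. Of mature adipocyte markers, 9 of 10 were past 2-fold upward there, with a median of 3.28, whereas markers of dividing cells were lower in SPAD in all 7 measured, with a median of -4.85. The word proliferative in the label was thus not matched by higher markers of division than in SVCD in these differentiated cultures. Cells before induction were not analysed here. Summed unscaled signals of the adipocyte markers were 129476 in SPAD and 35403 in SVCD, most of it from Fabp4 (108495 in SPAD and 31257 in SVCD). Endothelial markers were higher by about as much as those of adipocytes, in 8 of 10 with a median of 3.11, and with sums of 21734 in SPAD and 7393 in SVCD. Most markers of macrophages, of mesothelial cells, and of smooth muscle and myofibroblasts were at least 2-fold lower in SPAD. For macrophages this held for 6 of 9, with sums of 121432 in SPAD and 183022 in SVCD. The largest term, Lyz2, was not lower in the main values, with 98429 in SPAD and 84459 in SVCD, but was lower with spike-in scaling. Mesothelial markers were lower in 5 of 8, with sums of 1271 in SPAD and 11772 in SVCD. Smooth muscle and myofibroblast markers were lower in 5 of 6 (15460 in SPAD and 214486 in SVCD), and the sums for dividing cells were 986 in SPAD and 19851 in SVCD. Among the markers listed, Aurkb of dividing cells and Dpp4 of progenitors were below the detection call in both populations, and Cd68 of macrophages was on no named probe. Of adipose progenitor markers, 4 of 9 were higher and 1 lower, with sums of 21440 in SPAD and 7045 in SVCD, but 2 were higher and 3 lower with spike-in scaling. Their part in the differences of the 8 genes was not tested.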

How the data were processed

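RNA (30 ng) of each population was labelled with Cy3 and hybridised to 1 array, per the labels. The deposited scanner files, written by Feature Extraction (version 10.7.3.1 in the submitters' processing notes), hold background-subtracted processed intensity per spot, per the file headers. A second file from the authors holds log2 values centred on both arrays, whose SPAD minus SVCD difference is the log2 ratio of processed intensities plus 0.12. Control spots (1377 per array) and outlier spots (73 on SPAD, 85 on SVCD) were left out, repeat spots averaged, and the log2 intensity scaled to the 75th percentile of 39425 probes. Of these, 27506 were named through RefSeq accessions (GRCm38.p6, names only). A gene is read from its brightest probe. With 1 array per group there is no test, and genes are counted at 2-fold. The number of arrays limits the precision. The spot error came from 266 probes printed 10 times. The counting of 2-fold genes was tested on simulated data. Normexp (limma 3.58.1, offset 50), plain background subtraction, other scalings, filters, probe rules and the authors' table were alternatives; the files hold no mean signal column, so median signals were used in the first 2. Members, gene lists and tests were chosen with earlier results of these data known. Named genes are the 8 members, up to 4 genes per list with the largest absolute difference, and Nr3c1, Hsd11b1, Nr3c2, Mtf1, Slc30a1, Mt3, Mt4, Per1, Klf9, Klf15, Tsc22d1, Fkbp4, Egfr, Fos, Egr1 and Nr4a1. Not all that the rule allows are printed, and a few listed genes outside it are given beside them. Both arrays were on 1 slide and scanned together, per the file headers.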

Additional observations from a re-analysis of the deposited data

How the results depend on the processing

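No paired analysis was possible because each group has 1 array. Of the 8 genes, 1 was at least 2-fold higher in SPAD under each of the 10 alternatives. Over all genes that share ran from 6.44% with spike-in scaling to 16.9% in the authors' table. The count at least 2-fold lower was 0 in the main values, 1 without scaling, 1 with quantile normalization and 3 with spike-in scaling. Over all genes, 14.1%, 16.2%, 15.2% and 38.3% were lower by that much, in the same order, so these counts do not stand out. The median difference of the 8 genes moved to 0.11 without scaling and to -0.60 with spike-in scaling. Over all named genes, normexp lowered the number at least 2-fold higher to 1483 and the number lower to 1430, and spike-in scaling gave 1006 higher and 5992 lower, against 2547 and 2206 in the main values. The share of higher genes among those past 2-fold was 53.6% in the main values and 14.4% with spike-in scaling. The unscaled log2 differences of the spike-in probes ran from 0.65 to 1.76, with a median of 0.71, and the cause was not tested. The order of Mt2 above Mt1 held throughout, with a gap of 0.92 to 0.95. Mean and background signals for normexp were replaced by median signals, as the files have no mean column. Signal over background limits Klf15, Mt4 and Nr3c2, whose spots were dim, more than the 8 genes.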

Other observations

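Relatives of Fkbp5 and partners of the metallothioneins that stand outside the comparisons above went both ways in the main values. So did all genes, with 16.3% past 2-fold upward and 14.1% downward. Among 14 measured FK506-binding protein genes other than Fkbp5, Fkbp7, a chaperone of the endoplasmic reticulum, was 2.55-fold higher in SPAD (1515 in SPAD and 647 in SVCD). Fkbp2 and Fkbp1b were 2.21-fold and 2.20-fold lower, and the median was -0.13. With spike-in scaling 0 were past 2-fold upward and 6 downward, and the median was -0.97. In copper and heavy metal handling, 1 of 11 genes was at least 2-fold higher and 2 lower, with a median of -0.05, against 0 and 5 and a median of -0.89 with spike-in scaling. Sod1, the copper-zinc superoxide dismutase, had 73162 in SPAD and 39495 in SVCD (2.02-fold higher), and the metalloreductase gene Steap3 had 195 in SPAD and 1393 in SVCD (6.56-fold lower, and -1.22 on its other probe).

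In the list of MAP kinase genes set beside Dusp1, Mapk13 was 3.36-fold lower in SPAD (156 in SPAD and 574 in SVCD). Mapk3, which encodes ERK1, had 4352 in SPAD and 8698 in SVCD (-0.87, and -0.77 on its other probe). The median over the 9 genes was 0.48, or -0.36 with spike-in scaling.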
